A study of Mus musculus with 2 samples.

Results

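The regions described here are the accessible chromatin peaks of the embryonic kidney that were called in the Enl-WT library and had no counterpart in the Enl-T1 library. They were chosen by the peak calls themselves: a row of the Enl-WT peak list was taken when it overlapped no row of the Enl-T1 list by 1 bp or more, which left 47872 of 159560 Enl-WT peaks (30.0%). The other 111688 Enl-WT peaks overlapped an Enl-T1 peak and served as the comparison. Single-nucleus ATAC-seq, in which a transposase cuts and tags open DNA in single nuclei, had been applied to E15.5 mouse kidneys (mid-gestation embryos), with 1 library per genotype. Enl-WT embryos were Enl+/+ Wt1GFPCre/+ and Enl-T1 embryos were Enl flox-T1/+ Wt1GFPCre/+, that is, heterozygous for a conditional knock-in of a Wilms tumour insertion in the chromatin reader ENL. Both groups carried the Wt1GFPCre allele, which expresses a GFP-Cre fusion from the Wt1 promoter and inactivates 1 copy of Wt1. Per the paper, Enl-T1 is expressed in cells with Wt1 and in their descendants, within nephron and stroma, and not in the whole kidney. Embryos could be male or female, and their sex was not determined. The number of embryos pooled per library was not given in the sources used here. With 1 library per genotype there is no replicate check, so no p-value is given, and every interval below covers counting error only.

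After barcodes with 2000 to 100000 counts had been kept, Enl-WT held 9472 nuclei and 138015168 counts, and Enl-T1 held 12635 nuclei and 109444579 counts. The median was 14789.5 counts per nucleus in Enl-WT and 8753 in Enl-T1. The Enl-T1 list held 130027 peaks, of which 17478 overlapped no Enl-WT peak. The libraries shared 169 barcode sequences (1.76% of the Enl-WT barcodes). A region without an Enl-T1 peak can hold Enl-T1 fragments below the calling threshold, and these were not counted here, so the absence of a call is not the absence of accessibility. Since peaks were called on all nuclei of a library together, fewer nuclei of a cell type and less accessibility per nucleus cannot be told apart.

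The nephron is built from progenitors of the cap mesenchyme, which form a renal vesicle and then an epithelium patterned into podocytes, proximal tubule, loop of Henle and distal tubule. The ureteric epithelium branches beside them and gives the collecting ducts, and stroma and endothelium surround both. Each of these cell types opens its own set of promoters and distal elements, where factors such as SIX2 in progenitors, WT1 in podocytes, HNF4A in the proximal tubule and ETS-family factors in endothelium bind DNA.

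For 5 cell classes, the Enl-WT-only peak called for that class with the most counts in it was chosen for display. It had to lie beyond 2 kb of a transcription start site (TSS), with no annotated untranslated region in its central 300 bp. The calls themselves are described further on. Each sequence below is the central 300 bp of such a peak on the plus strand of GRCm38 (mm10), and capitals mark matches to any of the 17 motifs searched.
Proximal tubule-like, intron of Inava, chr1:136228697-136228996: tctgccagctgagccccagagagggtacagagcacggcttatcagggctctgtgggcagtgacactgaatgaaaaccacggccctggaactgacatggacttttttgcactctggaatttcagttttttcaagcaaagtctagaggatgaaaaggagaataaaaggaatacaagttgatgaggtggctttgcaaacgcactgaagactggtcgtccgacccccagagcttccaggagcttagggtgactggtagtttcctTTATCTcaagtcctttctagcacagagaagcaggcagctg
Podocyte-like, intergenic, chr12:111938815-111939114: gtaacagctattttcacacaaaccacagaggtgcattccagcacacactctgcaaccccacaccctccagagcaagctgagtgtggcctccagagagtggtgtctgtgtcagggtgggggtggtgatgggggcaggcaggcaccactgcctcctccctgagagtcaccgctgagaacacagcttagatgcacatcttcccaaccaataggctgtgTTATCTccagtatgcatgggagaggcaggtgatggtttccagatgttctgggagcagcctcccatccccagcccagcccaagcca
Distal tubule or loop-like, intron of Col18a1, chr10:77125262-77125561: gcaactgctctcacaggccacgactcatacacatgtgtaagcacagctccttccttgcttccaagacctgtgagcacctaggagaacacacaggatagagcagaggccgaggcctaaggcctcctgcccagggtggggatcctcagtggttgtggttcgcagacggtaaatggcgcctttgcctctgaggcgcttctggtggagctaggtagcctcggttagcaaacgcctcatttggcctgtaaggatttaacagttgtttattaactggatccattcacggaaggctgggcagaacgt
Endothelium-like, intron of Agpat2 near Egfl7, chr2:26595118-26595417: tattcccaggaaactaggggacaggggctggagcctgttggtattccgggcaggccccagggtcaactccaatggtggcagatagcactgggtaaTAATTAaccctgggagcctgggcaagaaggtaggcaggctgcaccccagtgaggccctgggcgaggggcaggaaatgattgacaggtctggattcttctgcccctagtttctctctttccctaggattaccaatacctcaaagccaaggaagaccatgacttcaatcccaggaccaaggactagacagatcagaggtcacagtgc
Nephron progenitor-like, intergenic near Uncx, chr5:139551413-139551712: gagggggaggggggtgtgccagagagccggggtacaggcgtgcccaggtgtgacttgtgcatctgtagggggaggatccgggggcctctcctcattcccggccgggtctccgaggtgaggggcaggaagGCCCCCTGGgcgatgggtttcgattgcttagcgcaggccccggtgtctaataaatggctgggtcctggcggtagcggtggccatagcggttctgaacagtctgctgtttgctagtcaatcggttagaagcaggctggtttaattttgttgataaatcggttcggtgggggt
The Inava and podocyte-like windows each held 1 GATA match on the minus strand, the Agpat2 window held 1 LHX or POU match, the Uncx window held 1 CTCF match and the Col18a1 window held none of the 17 motifs. The first ranked peak in proximal tubule-like nuclei was skipped for display because its centre holds an untranslated exon, and for the same reasons the Uncx peak was the eighth in its class.

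The Enl-WT-only peaks were mostly weak ones. Their median was 267 counts, against 585 for the peaks that overlapped an Enl-T1 peak, and the median share of nuclei with a count in the peak was 1.38% against 2.98%. They made up 30.0% of the peaks but took 11.2% of the Enl-WT counts. The widths were alike, with medians of 946 and 974 bp. When the Enl-WT peaks were ranked by their counts, 73.7% of the lowest decile (24 to 199 counts) were Enl-WT-only, 29.4% of the fifth decile (368 to 447 counts) and 0.627% of the highest decile (1721 to 125933 counts). The share fell at every step from the lowest to the highest decile.

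**Figure D1:**
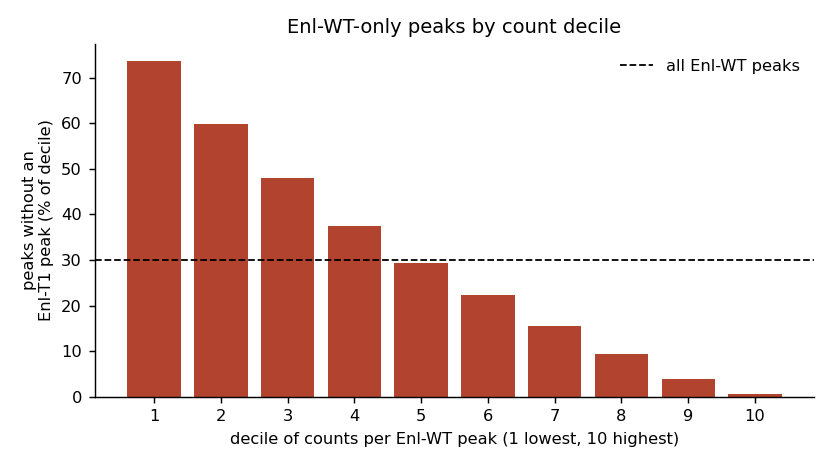
Bars give the percentage of Enl-WT peaks that overlapped no Enl-T1 peak, by decile of counts per peak (15956 peaks per decile), and the dashed line marks the 30.0% over all Enl-WT peaks. The share goes from 73.7% in the lowest decile to 0.627% in the highest.

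The total counts of Enl-T1 were 0.793 times those of Enl-WT. Multiplied by that factor, the counts of 27494 Enl-WT-only peaks (57.4%) were at or above 194, the 5th percentile of the counts of Enl-T1 peaks, as were those of 91.2% of the overlapping peaks. At the median of the Enl-T1 peaks, 457 counts, these shares were 8.64% and 50.8%. Most Enl-WT-only peaks thus had counts that, scaled to the smaller library, lay within the range in which Enl-T1 peaks were called, whereas few reached the counts of a typical Enl-T1 peak.

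Most of these peaks lay well away from any Enl-T1 peak. The median distance to the nearest was 4327.5 bp, 42998 (89.8%) were more than 500 bp away and 11776 (24.6%) more than 10 kb away. At the edge of the rule, 11 of the peaks touched an Enl-T1 peak without sharing a base, and 970 (2.03%) were within 100 bp of one. The members just inside the rule were peaks at chr1:44531755-44532522 with 85 counts, chr1:76828878-76829634 with 275 counts, and chr10:25219820-25220634 in an intron of Akap7 with 378 counts, each directly next to an Enl-T1 peak. Just outside it, sharing 1 bp with an Enl-T1 peak, were chr14:23014728-23015376 in an intron of Lrmda with 949 counts, chr16:64885114-64885808 with 316 counts and chr17:46594464-46595184 in an intron of Ptk7 with 567 counts. Peaks on either side of the edge had similar counts, with a median of 302 counts for the peaks less than 100 bp from an Enl-T1 peak and 307 for the 469 that overlapped one by less than 100 bp.

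Compared with the overlapping peaks, the Enl-WT-only peaks held fewer promoters and more introns. By the position of the peak centre in the GENCODE M21 basic annotation, 4516 (9.43%) lay within 2 kb of a TSS, against 21.5% of the overlapping peaks. Another 24071 (50.3%) lay in introns, against 40.4%. Intergenic peaks made up 36.7% and 35.1%, and exonic peaks 3.57% and 3.06%. The deficit was at the start sites themselves: 3.21% of the Enl-WT-only peaks had their centre less than 500 bp from a TSS, against 15.0%, while 4.42% and 4.25% lay between 1000 and 2000 bp. The median GC content of the central 300 bp was 47.7% against 49.7%, and the median ratio of observed to expected CpG was 0.199 against 0.261. Promoter peaks are strong in this assay, with a median of 1703 counts among the overlapping ones. Among peaks with 200 to under 400 counts, the promoter share was 7.95% of 25081 Enl-WT-only peaks and 7.70% of 29205 overlapping peaks, and the median GC content was 47.3% and 46.3%. In this range of counts the promoter share was therefore about the same in both groups of peaks. Other ranges were not compared. The peaks were spread over the genome, with shares between 27.5% of the Enl-WT peaks on chromosome 7 and 33.3% on chromosome 14 among the autosomes.

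To ask in which cells these regions were open, the Enl-WT nuclei were clustered on the overlapping peaks alone, so that no Enl-WT-only peak entered the clustering, and clusters were named from marker genes. The 14 clusters gave 2506 nephron progenitor-like, 3312 stroma-like, 876 ureteric epithelium-like, 780 proximal tubule-like, 712 distal tubule or loop-like, 678 endothelium-like, 330 podocyte-like and 123 immune-like nuclei, and 155 nuclei stayed unnamed. The proximal tubule-like cluster raised 12 of 15 proximal markers, with genes of the early nephron epithelium next, and at a finer clustering resolution the class held 205 nuclei, while a cluster of 579 nuclei, with the early nephron list first and the proximal list next, stayed unnamed. Of the nephron progenitor-like nuclei, 1042 came from a cluster that raised 5 of 10 progenitor markers. Its score was 0.706 for the progenitor list and 0.664 for the early nephron list. With clustering on all Enl-WT peaks, a cluster of 830 nuclei, with the early nephron list first and the progenitor list next, stayed unnamed. A peak with at least 200 counts was called for a class when its CPM (counts scaled to a class total of 1000000 in overlapping peaks) were at least 2 times those in all other nuclei. Of the Enl-WT-only peaks, 35926 reached 200 counts, and so did 107396 overlapping peaks.

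Proximal tubule-like nuclei had the highest share of their own counts in the Enl-WT-only peaks, though larger classes held more counts in all. In proximal tubule-like nuclei 15.1% of all counts fell in these peaks (95% exact binomial interval 15.1 to 15.2%), against 11.2% over all nuclei. The share was 12.7% in endothelium-like, 12.3% in distal tubule or loop-like and 12.3% in podocyte-like nuclei. Nephron progenitor-like nuclei had 10.7%, ureteric epithelium-like nuclei 10.6%, stroma-like nuclei 10.1% and immune-like nuclei 9.52%. The middle 90% of proximal tubule-like nuclei ranged from 12.1 to 18.8%, and that of nephron progenitor-like nuclei from 8.87 to 12.9%, so single nuclei of these classes overlapped. Within the stroma-like class, 1 cluster of 589 nuclei with a low median of 7807 counts had 13.5% of its counts in these peaks, and its other 4 clusters had 7.64 to 10.1%.

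By single peaks the order was similar. For the proximal tubule-like class, 7917 Enl-WT-only peaks were called, 22.0% of those with 200 counts, against 10.2% of all Enl-WT peaks with 200 counts and 6.29% of the overlapping ones. Over all peaks called for this class, 53.9% were Enl-WT-only. For distal tubule or loop-like nuclei 5609 were called (15.6%, with 9.95% of all peaks), and for podocyte-like nuclei 4913 (13.7%, with 8.97% of all peaks). These epithelial classes of the nephron together accounted for 14874 Enl-WT-only peaks (41.4%), against 24.5% of all peaks tested. The endothelium-like class had 5410 (15.1%, with 10.9% of all peaks) and the immune-like class 3780 (10.5%, with 8.69%). The remaining classes were at or below their background: nephron progenitor-like with 4722 (13.1%, with 14.1% of all peaks), ureteric epithelium-like with 3958 (11.0%, with 11.2%) and stroma-like with 4501 (12.5%, with 16.9%). In the stroma-like class 18.5% of the called peaks were Enl-WT-only, the lowest share of the 8 classes.

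**Figure D2:**
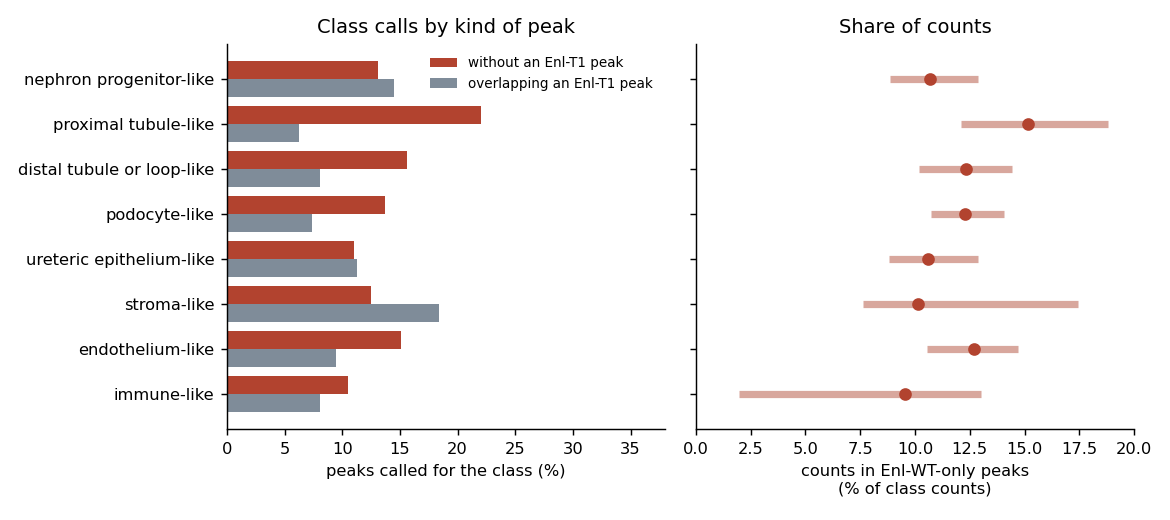
Left, bars give the percentage of Enl-WT-only peaks and of overlapping peaks (at least 200 counts) that were called for each class. Right, points give the percentage of the counts of each class that fell in Enl-WT-only peaks, with 95% exact binomial intervals smaller than the points, and pale bars span the 5th to 95th percentile of single nuclei. The proximal tubule-like class is highest in both, with 22.0% of Enl-WT-only peaks called and 15.1% of counts.

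Peaks open in a small class have few counts in the whole library, so the same shares were taken among peaks of like strength. Among peaks with 200 to under 400 counts, 46.2% of all peaks were Enl-WT-only, but 77.4% of those called for proximal tubule-like nuclei were, as were 59.8% for distal tubule or loop-like, 58.7% for podocyte-like and 56.8% for endothelium-like nuclei. For nephron progenitor-like, ureteric epithelium-like and stroma-like nuclei the shares were 40.5%, 38.8% and 32.3%. Among peaks with 800 counts or more, 3.62% of all peaks were Enl-WT-only, against 14.8% of those called for proximal tubule-like and 2.03% of those called for stroma-like nuclei. At that level ureteric epithelium-like calls were above the background with 4.79% and nephron progenitor-like calls at it with 3.65%, so these classes were below it only among weaker peaks. The excess in the proximal tubule-like class and the deficit in the stroma-like class were thus present at each level of counts. For immune-like calls the share was 50.95% among peaks with 200 to under 400 counts. It was 20.98%, against 19.5% of all peaks, at 400 to under 800 counts, and 3.41% at 800 or more. The immune-like excess was thus small among weaker peaks and absent among the strongest. Calls for this class of 123 nuclei, and to a lesser degree for the 330 podocyte-like nuclei, can rest on few counts. Over all peaks with at least 200 counts, and so not at like strength, an Enl-WT-only peak was called for 1 class in 54.3% of cases. It was called for none in 17.9%, against 48.1% and 35.3% of the overlapping peaks. The most frequent pair was proximal tubule with distal tubule or loop, which shared 2774 Enl-WT-only peaks (35.0% of the proximal and 49.5% of the distal ones).

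**Figure D3:**
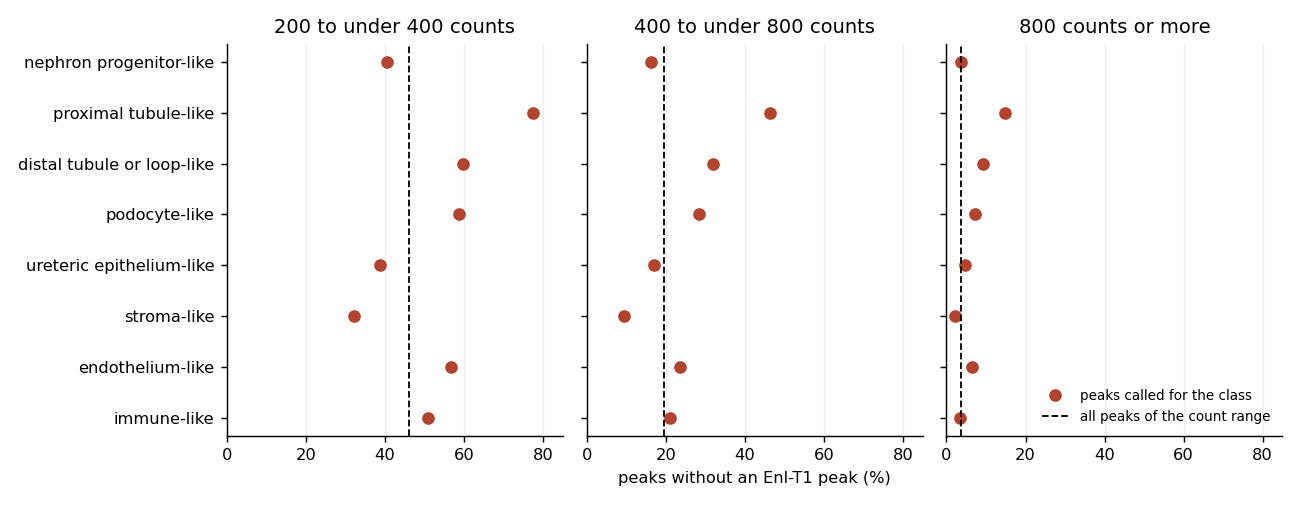
Points give the percentage of the peaks called for each class that were Enl-WT-only, in 3 ranges of counts per peak, and dashed lines give the percentage among all Enl-WT peaks of that range (46.2%, 19.5% and 3.62%). Proximal tubule-like peaks lie farthest above the line and stroma-like peaks farthest below it in each range.

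The levels of the class markers in the whole libraries moved with this pattern for some classes and not for others. Over overlapping peaks of the marker genes, 11 of 15 proximal tubule markers were lower in Enl-T1, with a summed level of 304 CPM in Enl-WT and 270 CPM in Enl-T1. For endothelium, 10 of 11 markers were lower, with 432 and 389 CPM. For podocyte markers 8 of 11 were lower with 679 and 677 CPM, and for distal tubule or loop markers 7 of 10 with 505 and 504 CPM. Both of these classes had more calls than the background while their summed marker levels were nearly equal in the libraries. For stroma 2 of 11 were lower, with 445 and 478 CPM, but for smooth muscle or ureteric stroma, whose clusters are pooled in the stroma-like class, 5 of 9 were lower with 217 and 201 CPM, with Actg2 at 0 in both. For nephron progenitors 5 of 10 were lower with 360 and 357 CPM, and for the early nephron epithelium 6 of 9 with 440 and 439 CPM. For ureteric epithelium 5 of 10 were lower with 335 and 327 CPM, and for immune cells 4 of 10 with 300.0 and 284 CPM, with Fcer1g, Tyrobp, C1qb and Lyz2 at 0 in both. The part of these differences, and of the lower depth per nucleus in Enl-T1, in the class pattern was not tested.

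The strongest called peaks of each class lay at genes of varied function. In proximal tubule-like nuclei the peak with the most counts lay 2.37 kb inside Ggt1 (chr10:75565417-75567155), the gene of a brush-border enzyme of glutathione breakdown, with 82.5 CPM against 11.0 CPM in all other nuclei, a ratio of 7.51 (95% interval 6.63 to 8.51). The Inava intron peak shown above had 70.5 against 11.7 CPM, a ratio of 6.01 (5.28 to 6.83). In distal tubule or loop-like nuclei the Col18a1 intron peak had 51.7 against 10.5 CPM, a ratio of 4.93, and the Ggt1 peak was called for this class too with 49.9 CPM. The Col18a1 peak had 51.1 CPM in proximal tubule-like nuclei, a ratio of 5.02, so both peaks were open in tubule cells of both kinds.

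In podocyte-like nuclei the intergenic peak on chromosome 12 shown above had 71.4 CPM against 9.59, a ratio of 7.45 (6.09 to 9.06), and a peak 0.433 kb from a start site of Tns2 (chr15:102103384-102104600), which encodes a focal adhesion protein needed by podocytes, had 70.3 against 27.1 CPM. In endothelium-like nuclei both named peaks lay near Egfl7, the gene of a protein secreted by endothelial cells: the Agpat2 intron peak had 71.5 against 10.0 CPM, with 41.9 CPM in proximal tubule-like nuclei, and the peak at chr2:26577992-26579037 had 69.2 against 4.64 CPM, a ratio of 14.9 (12.6 to 17.6). These vascular peaks were 5618 and 3965 bp from the nearest Enl-T1 peak.

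In nephron progenitor-like nuclei the named peaks lay at a start site of Espn (46.3 against 20.4 CPM), which encodes an actin-bundling protein, and 1.12 kb from that of Rspo1 (36.8 against 6.08 CPM, ratio 6.05, 5.24 to 7.01), which encodes a secreted agonist of Wnt signalling. The Espn peak was also open in ureteric epithelium-like (46.0 CPM) and distal tubule or loop-like nuclei (40.5 CPM). The Rspo1 peak, chr4:124984780-124985831, was 198 bp from an Enl-T1 peak. In ureteric epithelium-like nuclei they lay at Grb7 (46.4 against 11.2 CPM), the gene of an adaptor of receptor tyrosine kinases, and in Tmem189 (37.2 against 7.65 CPM). The Grb7 peak had 43.7 CPM in distal tubule or loop-like and 37.2 CPM in proximal tubule-like nuclei. In stroma-like nuclei they lay at Rasgrp2 (44.2 against 16.5 CPM), which encodes a Rap guanine nucleotide exchange factor, and in Carmn (32.0 against 8.28 CPM), a long noncoding RNA gene of smooth muscle. In the 123 immune-like nuclei they lay 6.61 kb from Fosb (94.5 against 7.33 CPM, from 104 counts) and at Slc3a2 (91.7 against 36.9 CPM, from 101 counts). Among the peaks named by class, those at start sites of Espn, Tns2, Rasgrp2 and Slc3a2 had the smallest ratios, 2.28, 2.59, 2.69 and 2.49.

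Start sites of proximal tubule genes often lay in Enl-WT-only peaks. Of 14815 protein-coding genes with a TSS inside an Enl-WT peak, 696 (4.70%) had a TSS inside an Enl-WT-only peak, and for 504 every such peak was Enl-WT-only. Of the 25 genes of the proximal transport and metabolism list with a TSS in a peak, 12 (48.0%) had one in an Enl-WT-only peak. Among 29 nephron transcription factor genes there were 7 (24.1%), with 3 of 17 loop and distal transport genes and 3 of 19 glomerular filter genes. None of the 10 nephron progenitor genes and none of the 11 stroma genes had one, and 1 of 74 ribosomal protein genes did. These shares were not matched for counts. Among olfactory and vomeronasal receptor genes, whose Enl-WT-only start-site peaks had 104 to 255 counts, 7 of 17 (41.2%) had one. Those of the proximal list had 160 to 1227 counts. The proximal list shares 9 of its 35 genes with the markers that named the clusters. The nephron transcription factor list shares 14 of 33, the glomerular filter list 7 of 19 and the loop and distal list 3 of 19. Hnf4a, Slc34a1, Slc5a2 and Cubn, described below, are among these markers. A match of such a gene with its class is not independent of the naming, although the naming used overlapping peaks only.

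The transcription factors came first among these. Hnf4a, a nuclear receptor that drives proximal tubule differentiation, had a start-site peak (chr2:163546546-163547643) that was 1927 bp from the nearest Enl-T1 peak, and none of its start sites lay in an overlapping peak. That peak had 40.4 CPM in proximal tubule-like nuclei and 2.52 CPM in all others, a ratio of 16.0 (12.9 to 19.9). The start-site peak of Nr1h4, the bile acid receptor FXR, had 13.5 against 1.44 CPM in the same comparison. Irx1, a factor of the middle segments of the early nephron, had 20.4 CPM in distal tubule or loop-like nuclei against 7.59, and its peak was 57 bp from an Enl-T1 peak. Esrrb and Mecom each had a peak at an alternative start site, with 7.23 CPM in distal tubule or loop-like and 6.85 CPM in ureteric epithelium-like nuclei.

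The transporters and enzymes had the same pattern of class. Slc34a1, the sodium phosphate cotransporter of the brush border, had 23.4 CPM in proximal tubule-like nuclei and 1.23 CPM elsewhere (ratio 19.1, 14.1 to 26.0). Slc4a4, the basolateral bicarbonate cotransporter, had 23.5 against 1.13 CPM (ratio 20.9, 15.3 to 28.7) at an alternative start site. Pck1 and G6pc, enzymes of gluconeogenesis, had 51.2 against 4.34 CPM and 9.89 against 1.73 CPM. The glucose transporter genes Slc2a2 and Slc5a2 had 17.1 against 1.03 CPM and 9.79 against 1.40 CPM. Anpep, a brush-border peptidase, had 53.4 against 5.85 CPM, and Cubn, an endocytic receptor, 15.48 against 2.43 CPM. Slc17a3 and Slc26a1 had 13.2 and 23.8 CPM in these nuclei, with ratios of 14.1 and 5.92. Glyat had 160 counts in all and so was not among the peaks tested, with 106 of them in proximal tubule-like nuclei. These 11 genes were thus highest in proximal tubule-like nuclei, with total counts from 160 to 1227.

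Several other listed genes were highest in their own cell types, but Nphs1, Slc12a1, Pecam1, Wnt7b and Lyz2 were also markers used to name these classes. Nphs1, which encodes the slit diaphragm protein nephrin, had 42.6 CPM in podocyte-like nuclei and 3.11 CPM elsewhere (ratio 13.7, 10.3 to 18). Slc12a1, the sodium potassium chloride cotransporter of the thick ascending limb, had 11.3 against 0.861 CPM in distal tubule or loop-like nuclei. Pecam1, an endothelial adhesion molecule, had 22.8 against 1.13 CPM in endothelium-like nuclei at 1 of its start sites. Wnt7b, a signal from the ureteric epithelium, had 19.7 against 8.27 CPM there. Lyz2 had 19.98 against 1.75 CPM in immune-like nuclei, from 22 counts. Some did not match the cell type of their list: Umod, a product of the thick ascending limb, was highest in nephron progenitor-like nuclei with 5.50 against 1.73 CPM, Cldn10 was highest in proximal tubule-like nuclei with 16.5 CPM, and a Synpo start site was highest in endothelium-like nuclei with 34.2 CPM. Fgf8, Hoxa6, Hoxc9, Hoxc11, Hoxd13 and Actg2 had start-site peaks of 405 to 1592 counts that were called for no class. The olfactory receptor genes Olfr1511 and Olfr875 had start-site peaks of 205 and 201 counts, with 18.9 and 15.7 CPM in endothelium-like nuclei.

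**Figure D4:**
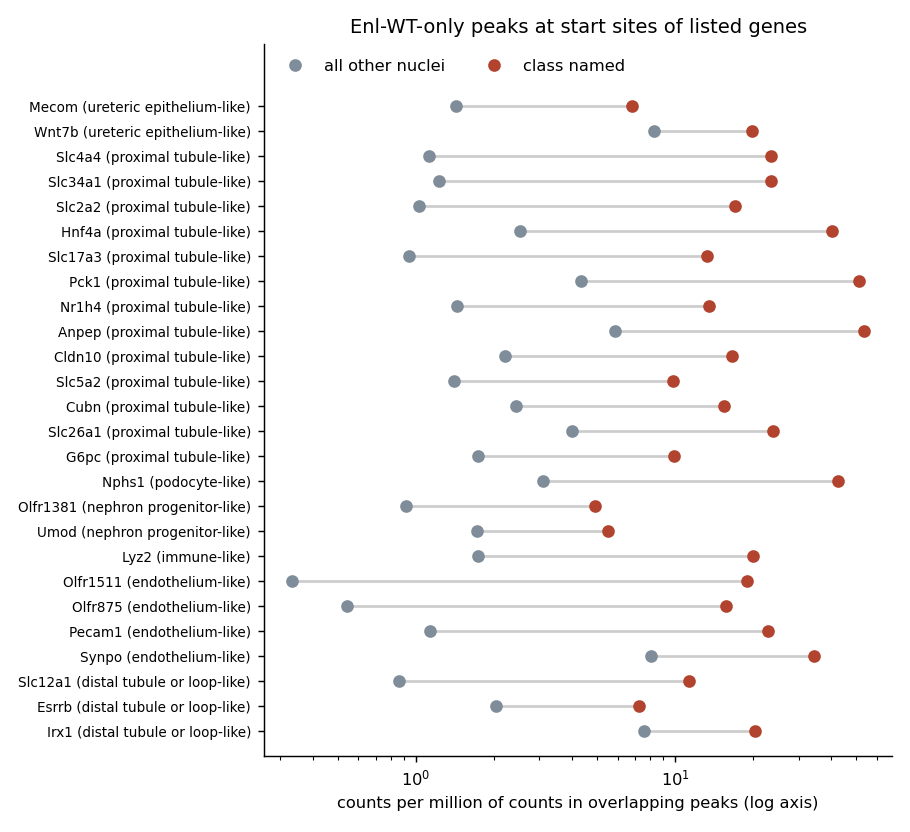
Each line is an Enl-WT-only peak at a start site of a listed gene described here that was called for its highest class. Red points give CPM in that class and grey points those in all other nuclei, on a log axis. Of the 26 peaks, 13 are highest in proximal tubule-like nuclei.

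Counted over whole gene bodies with 2 kb upstream, the lists differed less. For proximal transport and metabolism, 75 of 189 peaks (39.7%) were Enl-WT-only, against 30.0% of all Enl-WT peaks. The share was 33.8% for the glomerular filter, 33.7% for nephron transcription factors, 31.4% for loop and distal transport, 37.3% for nephron progenitor, 30% for early nephron epithelium, 32.0% for stroma and 28.8% for endothelium genes. It was 25.6% for smooth muscle or ureteric stroma, 20% for ureteric epithelium, 28.9% for immune and 23.7% for Hox genes. Ribosomal protein genes, whose peaks are strong promoters with a median of 4519 counts, had 7.69%, and olfactory and vomeronasal receptor genes, with a median of 251 counts, had 48.2%. The erythroid and neural or glial lists rested on 6 and 24 peaks, with 66.7% and 37.5%. Of the proximal list's Enl-WT-only peaks, 59 had 200 counts and 39 of these (66.1%) were called for proximal tubule-like nuclei, against 36 of 113 overlapping peaks (31.9%). For the glomerular filter 19 of 48 (39.6%) were called for podocyte-like nuclei, against 30 of 137 (21.9%).

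**Figure D5:**
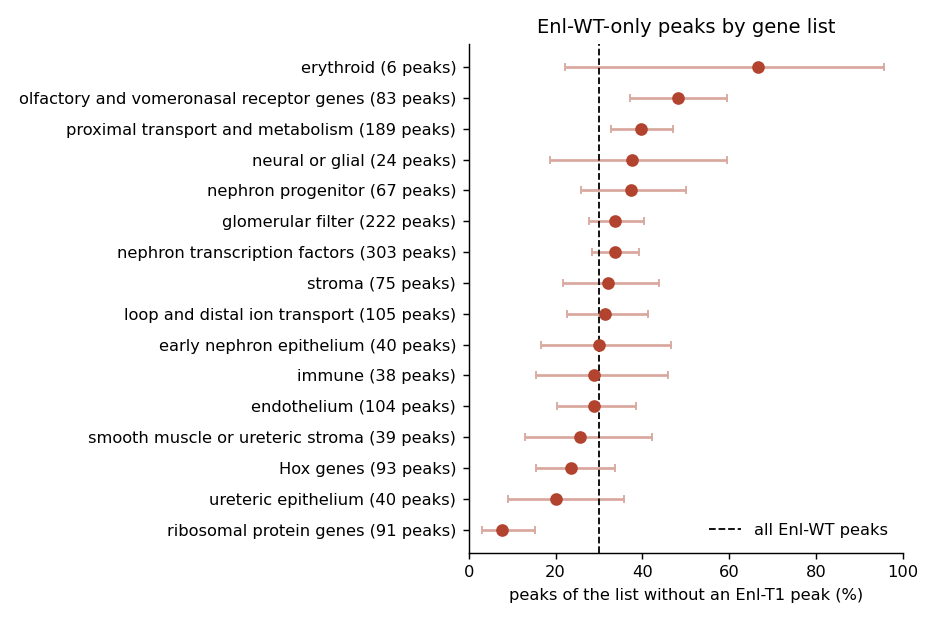
Points give the percentage of Enl-WT peaks in the gene bodies and 2 kb upstream of each list that were Enl-WT-only, with 95% exact binomial intervals, and the dashed line marks the 30.0% over all Enl-WT peaks. Peaks of a list come from 1 library and often from the same gene, so the intervals cover counting error only.

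The genes with the most Enl-WT-only peaks in each list had up to 29. Esrrg and Mecom, transcription factor genes with long introns, had 29 of 67 and 29 of 87. In the glomerular list Magi2, a scaffold of the slit diaphragm, had 23 of 45, Plce1 had 15 of 37 and Ptpro had 7 of 24. In the proximal list Slc4a4 had 12 of 33, Cubn 9 of 20 and Slc3a1, the cystine transporter subunit, 7 of 8. Among loop and distal genes Cldn10 had 7 of 15, Ptger3 5 of 8 and Egf 4 of 15. For nephron progenitors Itga8, an integrin of the cap mesenchyme, had 10 of 24, Eya1 4 of 11 and Crym 3 of 5. For the early nephron Cdh6 had 5 of 11 and Pax8 4 of 7, and for stroma Meis1 had 9 of 24, Ntn1 8 of 23 and Pdgfra 3 of 8. For endothelium Flt1 had 8 of 24, Tek 6 of 12 and Emcn 4 of 5. In the ureteric list Wnt7b had 5 of 10, Wnt11 2 of 6 and Gata3 1 of 7, and in the smooth muscle list Tbx18 had 5 of 8 and Rgs5 2 of 7. Cx3cr1 had 6 of 20 and Spi1 2 of 6 in the immune list, Elavl4 had 6 of 14 in the neural or glial list, Rps14 had 2 of 6 in the ribosomal list and Olfr56 had 4 of 11 in the olfactory list. Actg2, Fcer1g, Dll1, Epb42, Slc4a1, Erbb3, Rpl11, Rpl12, Olfr287 and Olfr1381 had 1 to 3 each. Among Hox genes Hoxc5 had 5 of 14, Hoxa3 4 of 14 and Hoxb3 3 of 6. Over all genes, the most lay in Gm20388 with 148, Fgfr2 with 101, Gm37240 with 52, Pde4d and Wwox with 50 each, Camta1 with 44, Auts2 with 42, Rbfox1 with 40, and Gpc6 and Ptprg with 39 each. Per 100 kb these had from 2.62 in Rbfox1 to 5.65 in Ptprg. Their shares of Enl-WT-only peaks ran from 23.1% in Gm20388 to 50.6% in Ptprg, and all except Gm20388 were above the 30.0% of the whole list. They were chosen by their number of such peaks. The annotated spans counted for Gm20388, Fgfr2 and Gm37240 were 4437, 2963 and 1393 kb. Peaks were assigned by position, so these counts can include peaks that lie in other genes.

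Short motifs were counted in the central 300 bp of each peak on both strands, with N for any base. The HNF4 motif CAAAGTCCA, which the protein of Hnf4a and its relatives bind, stood in 0.777% of Enl-WT-only peaks, 0.405% of overlapping peaks and 0.517% of all Enl-WT peaks. By class, it stood in 2.45% of the Enl-WT-only peaks called for proximal tubule-like nuclei (194 peaks) and in 1.41% of the overlapping ones, and in each of the 7 other classes in under 1% of the Enl-WT-only peaks. The motif was thus most frequent in the class for which the most Enl-WT-only peaks were called.

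Other classes had other motifs. The motif of SIX2 and its relatives, TCANGTTTC, stood in 3.88% of nephron progenitor-like Enl-WT-only peaks and 1.67% of all Enl-WT-only peaks, against 4.47% and 1.84% in overlapping peaks. The WT1 or EGR motif GCGTGGGNG stood in 1.87% of the podocyte-like ones and 0.679% of all, against 2.27% and 1.28% in overlapping peaks. The MAF motif GCTGANTCA, which contains the AP-1 motif TGANTCA, stood in 3.68% of the podocyte-like ones and 2.04% of all, against 3.30% and 1.77%. The SIX2 and WT1 or EGR motifs were thus somewhat less frequent in the Enl-WT-only peaks than in overlapping peaks called for the same class. For WT1 or EGR the interval of the Enl-WT-only share, 1.51 to 2.29%, covered the overlapping share. For SIX2 it was 3.34 to 4.47% and ended close to it. The ERG motif ACAGGAA stood in 30.1% of endothelium-like ones and 13.5% of all Enl-WT-only peaks, against 26.7% and 11.2% in overlapping peaks. SOX (ACAATG) stood in 20.9% and 15.51%, against 19.5% and 13.0%. The Hox9 to Hox11 motif TTTATNG was in 17.8% of the stroma-like ones and 13.4% of all, below the 24.4% and 15.2% in overlapping peaks. LHX or POU (TAATTA) stood in 15.6% of the distal tubule or loop-like ones and 9.56% of all, against 11.6% and 7.44%.

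As a whole the Enl-WT-only peaks held fewer promoter and CTCF motifs than the overlapping peaks. CTCF (CNAGGGGGC), the insulator factor, stood in 1.05% against 2.53%, SP (GGGCGG) in 7.23% against 17.9% and ETS (CCGGAAGT) in 0.499% against 1.29%. Beyond 2 kb of a TSS the ETS shares were 0.503% and 0.503%, the SP shares 6.69% and 9.59%, and the CTCF shares 1.05% and 2.18%. TEAD (ACATTCC) was at 7.59% against 5.79%. Of the motifs not yet described, FOX (TGTTTAC) was at 5.22% and 4.71%, the motif of GATA factors at 14.3% and 13.3% (with the letters AGATAA), AP-1 at 10.8% and 10.0%, NFI (TTGGCA) at 16.8% and 16.3%, and TCF or LEF (ATCAAAG) at 5.10% and 4.76%. A match describes the letters in the window and does not show that a factor bound there.

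Sites of 4 motifs are shown with 20 bases on each side, from the Enl-WT-only peaks with the most counts in the class where that motif was most frequent. They lie beyond 2 kb of a TSS and outside annotated untranslated regions. They were chosen after the class values were seen. Each is read 5′ to 3′ on the strand named, in GRCm38, with the motif in capitals.
HNF4, Ggt1, chr10:75566154-75566202, plus strand: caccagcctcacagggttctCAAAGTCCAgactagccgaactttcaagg
HNF4, Acly, chr11:100518381-100518429, minus strand: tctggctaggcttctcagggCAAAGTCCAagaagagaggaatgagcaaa
HNF4, Agpat3, chr10:78349627-78349675, minus strand: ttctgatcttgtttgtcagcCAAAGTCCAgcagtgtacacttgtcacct
SIX2, Zhx2, chr15:57793136-57793184, minus strand: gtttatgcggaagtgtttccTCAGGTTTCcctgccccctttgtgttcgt
SIX2, near Kcna6, chr6:126706083-126706131, minus strand: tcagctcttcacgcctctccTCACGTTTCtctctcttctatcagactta
WT1 or EGR, Fam171a2, chr11:102445637-102445685, minus strand: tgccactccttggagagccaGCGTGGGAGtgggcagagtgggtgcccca
WT1 or EGR, near Emid1, chr11:5183944-5183992, plus strand: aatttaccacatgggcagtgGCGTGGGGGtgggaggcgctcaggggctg
ERG, near Plpp1, chr13:112753729-112753775, minus strand: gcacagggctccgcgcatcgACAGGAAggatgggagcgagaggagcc
ERG, Tbc1d16, chr11:119216147-119216193, minus strand: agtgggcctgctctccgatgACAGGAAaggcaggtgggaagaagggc
The first 3 come from proximal tubule-like peaks, with 42.7 to 82.5 CPM in those nuclei and 5.12 to 11.0 CPM elsewhere. The SIX2 sites near Zhx2 and Kcna6 had 24.4 and 18.5 CPM in nephron progenitor-like nuclei, against 9.46 and 1.98. The WT1 or EGR sites at Fam171a2 and near Emid1 had 59.1 and 42.3 CPM in podocyte-like nuclei, against 18.6 and 8.12. The ERG site near Plpp1 had 63.0 CPM in endothelium-like nuclei and 2.79 CPM elsewhere (ratio 22.6, 18.5 to 27.6), and the site at Tbc1d16 had 53.7 and 7.84 CPM.

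A few Enl-WT-only peaks were strong, and most of these lay at promoters open in many cells. The highest, chr5:110106546-110108512 at Gtpbp6, which encodes a mitochondrial GTP-binding protein, had 10027 counts in 38.4% of nuclei, and the nearest Enl-T1 peak was 1238 bp away. The peak at Ggnbp2 (chr11:84869699-84871040) had 9185 counts in 37.0% of nuclei with no Enl-T1 peak within 8750 bp. The next were at Gm6410 with 5315 counts, Slc3a2 with 4581, Phf21a with 4245, Lzts2 with 3962, an intron of Gm26759 with 3847, Tns2 with 3473, Espn with 3420 and Irf2 with 3269 counts. Of these 10, the peaks at Gm6410, Lzts2, Phf21a and Irf2 were 47, 182, 394 and 459 bp from an Enl-T1 peak and the others more than 1 kb. Counts this high lie above the 5th percentile (194) and the median (457) of the counts of Enl-T1 peaks, which also included peaks as strong as these. Why no Enl-T1 peak was called at these regions was not tested.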

How the data were processed

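Single-nucleus ATAC-seq of E15.5 mouse kidneys gave 1 Enl-WT and 1 Enl-T1 library. The authors aligned reads to mm10 and called peaks per library with Cell Ranger ATAC 2.1.0 (per the labels' processing notes). They deposited whole-number counts per peak and barcode, a peak list and a barcode list. About 91.1% of the Enl-WT values above 0 were even, since both ends of a fragment are usually counted, so intervals were computed on counts divided by 2. The quality filters of the study need fragment files and were not applied. Barcodes with 2000 to 100000 counts were kept. Overlaps (1 bp or more) were computed in Python and checked with bedtools 2.31.1.

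The members and the gene, marker and motif lists were chosen with earlier results of these data known. Genes came from GENCODE M21 (basic), sequences from the RefSeq copy of GRCm38, read with samtools 1.23.1; 9 Enl-WT-only peaks without sequence were left out of motif counts. Enl-WT nuclei were clustered on overlapping peaks (TF-IDF, singular value decomposition, 30 components without the first, 15 neighbours, Leiden resolution 1, leidenalg 0.10.2). A cluster was named from its best marker list (at least 3 markers raised), and 1 led by the 100 most counted peaks stayed unnamed. Stroma and smooth muscle clusters were pooled. The CPM floor of 50 for leading genes, the pooling and the rule on the most counted peaks were set after the clusters had been seen. Doublets were kept, and 730 nuclei most like simulated doublets were removed as an alternative. The call of a peak for a class was tested on simulated data for the proximal tubule-like class only, with peaks raised by more than the call threshold. The other classes were not simulated. With 1 library per group no test between groups was made.

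Named peaks and genes were the 2 called peaks per class with the most counts in it, the 10 with the most counts, the 3 genes per list and 10 genes overall with the most members, listed genes with a start site in a member, and the 3 peaks on each side of the threshold. 16 gene lists and 17 motifs were used. Some items are not reported here.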

Additional observations from a re-analysis of the deposited data

How the results depend on the processing

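Limits: 1 library per genotype, a lower median depth per nucleus in Enl-T1, and calls made per library, so that all differences rest on these 2 libraries. No podocyte-like class formed at resolution 0.5, so it has no value there, and at resolution 2 the proximal tubule-like class held only 205 nuclei, with 579 left unnamed in a cluster led by early nephron markers. The number of Enl-WT-only peaks was 42998 with Enl-T1 peaks widened by 500 bp, and within 1.5 times the main count under the other choices.

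The share of counts moved from 11.2% to 11.18% with barcodes of 5000 to 100000 counts and to 9.76% with widened Enl-T1 peaks. By counts per kb, the lowest decile held 72.5% and the highest 0.896%. The share near a TSS was 5.02% within 1 kb, 4.27% for protein-coding TSSs and 8.60% beyond 500 bp of an Enl-T1 peak.

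Class calls moved by over 1.5 times only with the fold or count threshold, and for immune-like nuclei, with 1935, by share of nuclei with a count. At 4 times, calls were 1081 nephron progenitor, 4137 proximal tubule, 1283 distal tubule or loop, 1554 podocyte, 1015 ureteric epithelium, 1553 stroma, 3182 endothelium and 1218 immune. At 500 counts per peak they were, in the same order, 751, 1761, 1160, 843, 648, 486, 916 and 511. Proximal tubule had the most at both. Over all alternatives run, the Enl-WT-only share of proximal tubule-like calls was 28.4% (at 500 counts) to 73.1% (at 4 times), the highest of the classes formed each time. Leaving out the stroma-like cluster of lowest depth, an alternative chosen after seeing the data, gave 7723 proximal tubule calls.

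Within 2 kb of a TSS, the shares were 47.5% for proximal transport and metabolism, 21.6% glomerular filter, 14.3% loop and distal ion transport, 19.6% nephron transcription factors, 12.5% nephron progenitor, 9.09% early nephron epithelium, 8.70% stroma, 8.33% smooth muscle or ureteric stroma, 5.88% endothelium, 50% immune, 36.5% olfactory and vomeronasal, and 0 for erythroid and neural or glial. With peaks of at least 200 counts, the glomerular filter had 25.9% and the olfactory list 36.2%. HNF4 stood in 0.537% of 200 bp windows and 1.14% of 500 bp windows, with ratios to overlapping peaks of 1.98 and 1.71. No paired analysis was possible because each genotype has 1 library.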

Other observations

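The olfactory and vomeronasal receptor genes, which are silent in most tissues, had 17 genes with a start site in an Enl-WT peak, of which 7 had one in an Enl-WT-only peak. These start-site peaks had 104 to 255 counts, and those of Olfr1510, Olfr1511 and Olfr875 had 11.4, 18.9 and 15.7 CPM in endothelium-like nuclei against 0.633, 0.334 and 0.545 CPM in all others. Among Enl-T1 peaks without an Enl-WT counterpart, the median was 273 counts, close to the 267 of the Enl-WT-only peaks, and the highest had 10217 counts.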
